A study of Mus musculus with 6 samples.

Results

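The genes described here serve the calcium store of skeletal muscle. They are the 3 SERCA calcium pump genes Atp2a1, Atp2a2 and Atp2a3, the pump regulators Sln and Pln, the calcium-binding proteins of the sarcoplasmic reticulum Casq1, Casq2, Hrc and Srl, and the cytosolic calcium buffer Pvalb. They were found by gene symbol in the deposited expression table, in which all 10 of 10 had a row among 25572 genes. All 10 reached the mean of 0.5 FPKM over 6 libraries (fragments per kilobase of gene, scaled to the library total) required for testing, as did 13288 genes in all. RNA sequencing had been done on hind limb skeletal muscle at day 3 after surgery for hind limb ischaemia (HLI), a model in which the blood supply of a limb is restricted. The animals were 3 HDCKO mice (Hdc-/-), which lack histidine decarboxylase, the enzyme that makes histamine, and they were set against 3 WT mice, with 1 library per mouse. Muscles of both genotypes carried the HLI label, and no muscle labelled as uninjured was analysed here. Both sides of each comparison therefore come from mice after surgery, and the degree of injury of each muscle is not given. The sources used here do not give the leg, the muscle, the strain, the age or the exons that the mutation removes. Values of 3 libraries of a genotype are given in the order of replicates 1, 2 and 3.

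In a resting muscle fibre, calcium is held in the sarcoplasmic reticulum, bound to calsequestrin and other luminal proteins. Release through the ryanodine receptor starts contraction, and SERCA pumps return the calcium to the store and so end it. Fast fibres use SERCA1 (Atp2a1) and the cytosolic buffer parvalbumin, while slow fibres and the heart use a form of SERCA2 (Atp2a2), which most other cells also carry in their endoplasmic reticulum. SERCA3 (Atp2a3) is known from blood platelets, lymphocytes and some endothelia. Sarcolipin and phospholamban are short membrane peptides that bind SERCA and lower its activity.

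Library depth, estimated from the step between low FPKM values of genes with 1 annotated transcript, was 29500000 to 37600000 fragments. Hdc itself was measured at 1.22, 2.46 and 2.52 FPKM in the HDCKO libraries and at 7.49, 7.72 and 8.17 FPKM in the WT libraries (log2 change -1.74, SE 0.25, limma adjusted p = 0.00334). The muscle label was checked against 17 genes of fast fibres and fibre structure, such as Acta1 and Ckm. Their mean log2 level was 11.22, 10.95 and 10.33 in the HDCKO libraries and 5.08, 3.78 and 3.58 in the WT libraries, so fibre transcripts were present in all 6 libraries and far fewer in WT. HDCKO replicates 2 and 3 stood apart from HDCKO replicate 1 in B cell markers, whose summed level was 0.492, 64.6 and 187 FPKM in the HDCKO libraries and 0.860 to 1.76 FPKM in WT. All 7 neutrophil markers tested fell (median log2 change -6.30), and their summed level was 32.3 to 69.7 FPKM in HDCKO and 2414 to 14349 FPKM in WT.

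Of the 10 pump, regulator and buffer genes, 9 rose in HDCKO muscle, 0 fell, and Atp2a2 did not pass the threshold (unadjusted limma p = 0.524, exact permutation p = 0.7). The test was limma on log2(FPKM + 0.5) with p-values adjusted over all genes tested and a threshold of 0.05. Of all 13288 genes tested, 17.8% rose and 42.6% fell by the same rule. The HDCKO and WT values did not overlap for the same 9 genes, all of them higher in HDCKO, beside 21.2% of all genes with HDCKO wholly above WT and 51.4% with HDCKO wholly below. The median log2 change of the 10 genes was 4.77 and that of all genes tested was -0.50. Scaling moved the general split: with median-of-ratios scaling 3593 genes rose and 3355 fell, against 2362 and 5658 on the deposited values, and the median of all genes was -0.01. After quantile normalization 3134 rose and 4020 fell, with a median of -0.12. In each of these fits 9 of the 10 genes rose. In bulk muscle, more fibre tissue and more RNA per fibre cannot be told apart.

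**Figure D1:**
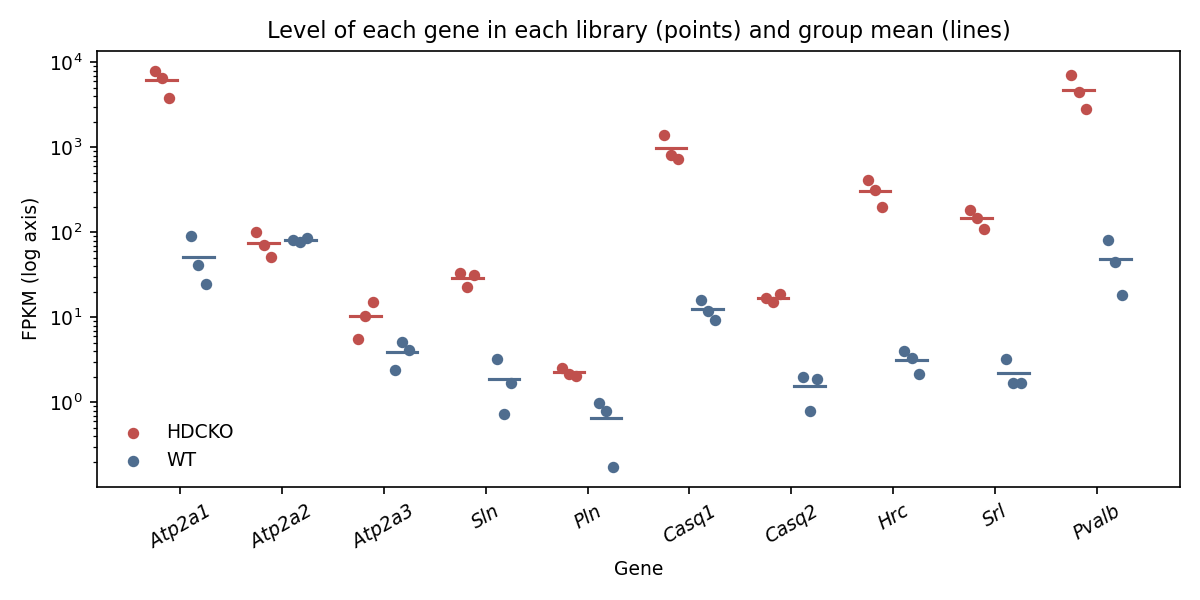
FPKM of each gene (log axis) in every library, with HDCKO points left of WT points for each gene and a line at the group mean. The HDCKO points lie above all WT points for 9 genes, and for Atp2a2 the 3 WT points lie within the HDCKO range of 51.02 to 102 FPKM.

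Atp2a1 encodes the SERCA pump of fast fibres. Its level was 8024, 6611 and 3795 FPKM in the HDCKO libraries, and 90.4, 41.1 and 24.7 FPKM in the WT libraries. Every HDCKO library held at least 3795 FPKM, and HDCKO replicate 3 and WT replicate 3 were the lowest of their groups. The means were 6143 ± 2153 FPKM in HDCKO and 52.0 ± 34.2 FPKM in WT (SD, n = 3 each), a 118-fold difference. The log2 change was 7.005 (SE 0.53, limma adjusted p = 4.26e-04), and 13 of 13288 genes had a larger one. The gene ranked 11 by FPKM among all genes in each HDCKO library and 765, 1740 and 2718 in the WT libraries. Atp2a1 (ENSMUSG00000030730) lies on chromosome 7, 126045013 to 126063423, minus strand, in GRCm39, and shares 1188 exonic bases with Rabep2 on the other strand.

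Atp2a2 encodes SERCA2, both the form of slow fibres and the form of non-muscle cells, which a value per gene does not separate. It was measured at 102, 70.9 and 51.02 FPKM in the HDCKO libraries, and at 80.8, 77.2 and 85.9 FPKM in the WT libraries. The WT libraries lay close together, and the HDCKO libraries lay on both sides of them. The means were 74.6 ± 25.7 FPKM in HDCKO and 81.3 ± 4.34 FPKM in WT (SD, n = 3 each), so the HDCKO mean was 91.8% of the WT mean. The log2 change of -0.18 (95% interval -0.82 to 0.46, limma adjusted p = 0.572) was smaller than the spread among the HDCKO libraries. Its sign depended on scaling, with 0.38 when scaled by median of ratios and 0.15 when quantile normalized. With sample weights it passed as lower (-0.20, adjusted p = 0.0299), and without HDCKO replicate 3 it was 0.07 (adjusted p = 0.759).

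Atp2a3 encodes SERCA3. It held 5.57, 10.4 and 15.04 FPKM in the HDCKO libraries, and 2.38, 5.11 and 4.16 FPKM in the WT libraries. HDCKO replicate 1 was just above the highest WT library, and HDCKO replicate 3 was far above it. The log2 change of 1.26 (SE 0.41, limma adjusted p = 0.038) had the largest adjusted p of the 9 increases. It did not pass when HDCKO replicate 2 (adjusted p = 0.107) or HDCKO replicate 3 (0.0714) was left out, nor when any single WT library was left out (0.0574 to 0.112). It also did not pass with no filter on low values (adjusted p = 0.07) or with columns rescaled to the same sum (0.0518). Among the HDCKO libraries lymphocyte markers stood in the same order as Atp2a3. So did the platelet, macrophage, fibroblast and endothelial lists, the last with sums of 151, 186 and 232 FPKM. The summed level of 7 T and NK cell markers was 0.244, 42.8 and 76.3 FPKM in the HDCKO libraries against 2.24 to 4.17 FPKM in WT. In HDCKO replicate 1 that sum was thus below every WT library, although Atp2a3 was above them. B cell markers followed the same order in HDCKO. Of the T and NK cell markers 0 of 6 tested were called by limma, and of the B cell markers 0 of 5, also at an unadjusted p under 0.05. Platelet and megakaryocyte markers summed to 19.3, 65.9 and 152 FPKM in the HDCKO libraries and to 1173 to 1726 FPKM in WT. Nearly all of the WT sum was Pf4 (mean 1176 FPKM) and Ppbp (mean 330 FPKM). Only 3 of the 7 markers reached the level required for testing, and these 3 fell. Of 6 endothelial markers 0 rose and 3 fell, beside 42.6% of all genes tested that fell. Their median log2 change was -0.49, near the -0.50 of all genes tested. The part of these cells in the level of Atp2a3 was not tested. In a step added after the data were seen, HDCKO replicate 1 was set alone against the 3 WT libraries. The log2 change was then 0.52. Since that library is the lowest of HDCKO for Atp2a3, the change was bound to shrink.

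The make-up of the pump transcripts differed between the genotypes. Of the summed FPKM of the 3 pump genes, Atp2a1 made up 98.7%, 98.8% and 98.3% in the HDCKO libraries, and 52.1%, 33.3% and 21.5% in the WT libraries. Atp2a2 made up 1.06% to 1.32% in HDCKO and 46.6% to 74.9% in WT, and Atp2a3 0.0684% to 0.390% in HDCKO and 1.37% to 4.14% in WT. The ratio of Atp2a1 to Atp2a2 was 78.7, 93.2 and 74.4 in the HDCKO libraries, and 1.12, 0.531 and 0.287 in the WT libraries. The log2 ratio was 7.18 higher in HDCKO, with no overlap. A ratio within a library does not depend on the scaling of that library, apart from the pseudocount in its log2 value. An exact two-sided permutation test over 6 libraries gave p = 0.1, the smallest that 3 against 3 allow, and 0.18 adjusted over the 9 pairs of genes compared. The SERCA genes share stretches of sequence, and the sources used here do not say how reads that match more than 1 gene were counted.

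**Figure D2:**
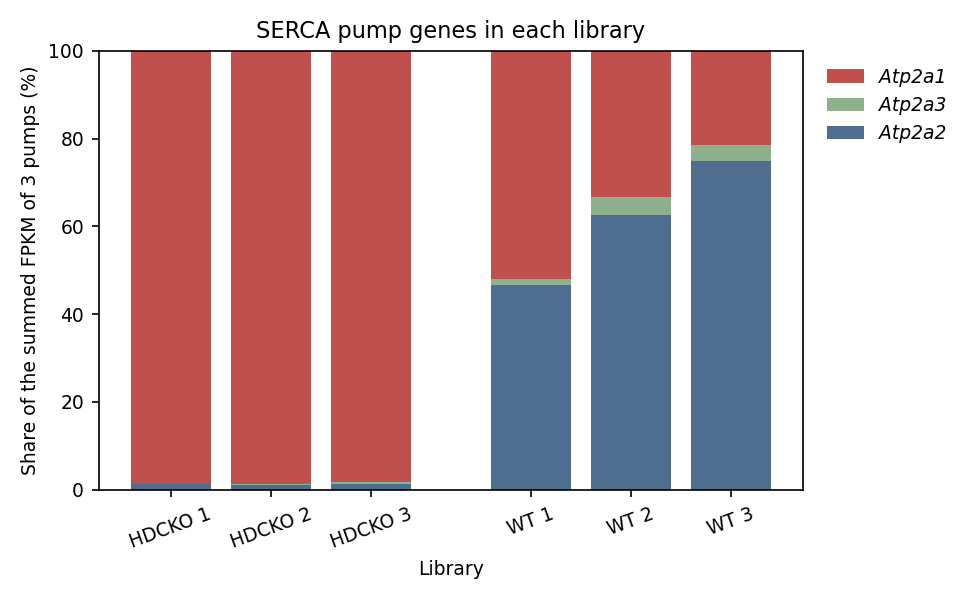
Share of each pump gene in the summed FPKM of Atp2a1, Atp2a2 and Atp2a3 (percent), 1 bar per library, HDCKO libraries on the left. Atp2a1 fills more than 98% of each HDCKO bar and 21.5% to 52.1% of the WT bars.

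Sarcolipin and phospholamban are encoded by short reading frames with a single coding exon. The 2 reading frames are shown because the genes differ in level and in the tail and phosphorylation sites by which their peptides are known. They were read from GRCm39 by GENCODE M39 coordinates, without the stop codon, at chr9:53760757-53760849 (Sln, plus strand, 31 codons) and chr10:53219960-53220115 (Pln, plus strand, 52 codons). Capitals mark the last 5 codons of Sln, which encode its luminal tail, and codons 16 and 17 of Pln, the serine and threonine whose phosphorylation relieves the pump of inhibition.
Sln: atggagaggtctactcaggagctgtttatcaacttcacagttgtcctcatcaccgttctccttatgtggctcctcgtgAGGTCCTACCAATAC
Pln: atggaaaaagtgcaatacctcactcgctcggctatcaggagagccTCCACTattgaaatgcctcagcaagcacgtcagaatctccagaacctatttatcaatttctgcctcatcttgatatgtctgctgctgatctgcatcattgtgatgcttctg

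Sln rose, and its level was far below that of Atp2a1 in both genotypes. It was measured at 33.0, 23.0 and 31.8 FPKM in the HDCKO libraries, and at 3.25, 0.726 and 1.71 FPKM in the WT libraries. The HDCKO libraries lay within a narrow range, all well above WT. The mean was 29.3 ± 5.46 FPKM in HDCKO and 1.90 ± 1.27 FPKM in WT (SD, n = 3 each), a 15.4-fold difference, with a log2 change of 3.76 (SE 0.41, limma adjusted p = 0.00137). At the estimated depths and the annotated exon length, the WT values correspond to about 160, 41 and 98 fragments in the WT libraries. Relative to the pump of fast fibres, Sln was lower in HDCKO: the ratio of Sln to Atp2a1 was 0.00412, 0.00348 and 0.00837 in the HDCKO libraries and 0.0360, 0.0177 and 0.0693 in the WT libraries. The difference in log2 ratio was -3.24 with no overlap (exact permutation p = 0.1, 0.18 adjusted over 9 pairs).

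Pln had the lowest mean level of the 10 genes in both genotypes, though Sln was lower than Pln in WT replicate 2. Its values were 2.57, 2.15 and 2.05 FPKM in the HDCKO libraries, and 0.997, 0.783 and 0.174 FPKM in the WT libraries. The HDCKO values were all near 2 FPKM, and WT replicate 3 was the lowest library. The log2 change was 1.33 (SE 0.32, limma adjusted p = 0.0152), and it missed the threshold without HDCKO replicate 2 (adjusted p = 0.0517). Pln shares 141 exonic bases with Cep85l and 2688 with the non-coding gene Gm47644, both read from the other strand. Cep85l was measured at 7.22, 10.8 and 4.25 FPKM in the HDCKO libraries and at 1.57, 2.20 and 1.62 FPKM in the WT libraries. The sources used here do not say whether strand was used in counting, so reads of Pln and of these neighbours cannot be told apart where they overlap. The ratio of Sln to Pln was 12.9, 10.7 and 15.5 in the HDCKO libraries and 3.26, 0.927 and 9.84 in the WT libraries, a log2 difference of 2.43 with no overlap (exact permutation p = 0.1, 0.18 adjusted over 9 pairs). The log2 ratio of Pln to Atp2a2 was 1.51 higher in HDCKO, with the same p-values.

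The luminal calcium-binding genes rose as well. Casq1 encodes a calsequestrin of skeletal muscle fibres, the main calcium-binding protein of the store. It held 1405, 818 and 729 FPKM in the HDCKO libraries, and 16.04, 12.0 and 9.41 FPKM in the WT libraries. HDCKO replicate 1 was the highest library, and the lowest HDCKO library was far above every WT library. The means of 984 ± 367 FPKM in HDCKO and 12.5 ± 3.34 FPKM in WT (SD, n = 3 each) differed 78.9-fold, with a log2 change of 6.22 (SE 0.32, limma adjusted p = 1.7e-04).

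Hrc encodes the histidine-rich calcium-binding protein of the sarcoplasmic reticulum lumen. It was measured at 411, 313 and 201 FPKM in the HDCKO libraries, and at 4.01, 3.37 and 2.14 FPKM in the WT libraries. Srl encodes sarcalumenin, a luminal glycoprotein that binds calcium. Its values were 186, 146 and 111 FPKM in the HDCKO libraries, and 3.25, 1.69 and 1.71 FPKM in the WT libraries. For both genes HDCKO replicate 1 was the highest library, and no HDCKO value came near a WT value. The HDCKO mean was 97.2-fold the WT mean for Hrc (log2 change 6.37, SE 0.32) and 66.6-fold for Srl (log2 change 5.79, SE 0.29), each with a limma adjusted p of 1.7e-04. The ratio of Hrc to Casq1 was 0.276 to 0.383 in HDCKO and 0.227 to 0.282 in WT, and that of Srl to Casq1 was 0.132 to 0.179 in HDCKO and 0.141 to 0.202 in WT. Both ratios overlapped between the genotypes (exact permutation p = 0.5 and 0.2, 0.5 and 0.257 adjusted over 9 pairs).

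Casq2, the other calsequestrin, known from slow fibres and heart, rose with a smaller log2 change than Casq1. It was measured at 17.01, 15.4 and 18.7 FPKM in the HDCKO libraries, and at 1.98, 0.799 and 1.89 FPKM in the WT libraries. The HDCKO libraries were nearly alike, and WT replicate 2 was the lowest. The means in FPKM differed 10.9-fold, and on the log2(FPKM + 0.5) scale the change was 3.15 (SE 0.28, limma adjusted p = 6.65e-04). Casq1 made up 98.8%, 98.2% and 97.5% of the 2 calsequestrins in the HDCKO libraries and 89.0%, 93.7% and 83.3% in the WT libraries. The log2 ratio of Casq1 to Casq2 was 3.07 higher in HDCKO with no overlap (exact permutation p = 0.1, 0.18 adjusted over 9 pairs).

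Pvalb encodes parvalbumin, the buffer that takes up calcium in the cytosol of fast fibres. It held 7054, 4465 and 2866 FPKM in the HDCKO libraries, and 81.8, 44.6 and 18.4 FPKM in the WT libraries. In both genotypes the libraries stood in the same order as for Atp2a1. The means were 4795 ± 2114 FPKM in HDCKO and 48.2 ± 31.8 FPKM in WT (SD, n = 3 each), a 99.4-fold difference (log2 change 6.77, SE 0.60, limma adjusted p = 6.69e-04). The ratio of Pvalb to Atp2a1 was 0.675 to 0.879 in HDCKO and 0.745 to 1.09 in WT, and the groups overlapped (exact permutation p = 0.3, 0.338 adjusted over 9 pairs). Atp2a1 and Pvalb together took up 3.31%, 2.45% and 1.57% of all FPKM in the HDCKO libraries, and 0.0415%, 0.0204% and 0.0106% in the WT libraries.

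**Figure D3:**
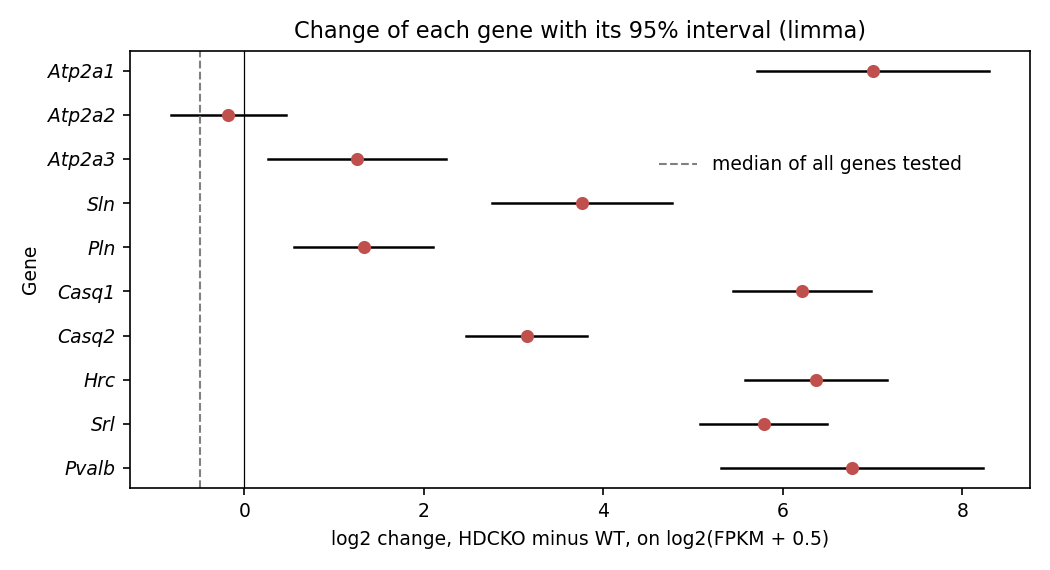
Log2 change (HDCKO minus WT, on log2(FPKM + 0.5)) of each gene with its 95% interval from limma; the dashed line is the median of all genes tested, -0.50. Atp2a1, Pvalb, Hrc, Casq1 and Srl lie between 5.79 and 7.005, Sln and Casq2 between 3.15 and 3.76, Pln and Atp2a3 near 1.3, and the interval of Atp2a2 spans 0.

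The order of the genes by level also differed. In HDCKO muscle it ran Atp2a1, Pvalb, Casq1, Hrc, Srl, Atp2a2, Sln, Casq2, Atp2a3 and Pln, and only the ranges of Atp2a1 and Pvalb overlapped among neighbours. In WT muscle Atp2a2 came first, followed by Atp2a1, Pvalb, Casq1, Atp2a3, Hrc, Srl, Sln, Casq2 and Pln. There, neighbours overlapped in range except Pvalb with Casq1 and Casq1 with Atp2a3. FPKM is scaled by gene length, so these levels can be set side by side within a genotype.

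To set each gene against the fibre transcripts of its own library, its log2 level was taken relative to the mean log2 level of the 17 fibre genes, which rose by 6.69 in HDCKO. Atp2a1 differed from the fibre genes by 0.31 more in HDCKO than in WT, Pvalb by 0.07, Hrc by -0.32 and Casq1 by -0.48, and for these 4 genes the groups overlapped (exact permutation p from 0.2 to 1). Each difference on this scale is the log2 change of the gene less the 6.69 of the fibre genes, so it is not a separate result. The direction for Pvalb turned with a pseudocount of 0.1. For Srl the difference was -0.91 without overlap, with -3.66 ± 0.114 in HDCKO and -2.75 ± 0.379 in WT. The relative level was also lower in HDCKO without overlap for Sln (difference -2.93), Casq2 (-3.54), Pln (-5.36), Atp2a3 (-5.43) and Atp2a2 (-6.87), each with exact permutation p = 0.1 and 0.167 adjusted over the 10 genes. The HDCKO libraries were close together on this scale for Hrc (SD 0.0749), Atp2a1 (0.107), Srl (0.114) and Atp2a2 (0.124), and spread most for Atp2a3 (SD 1.12).

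**Figure D4:**
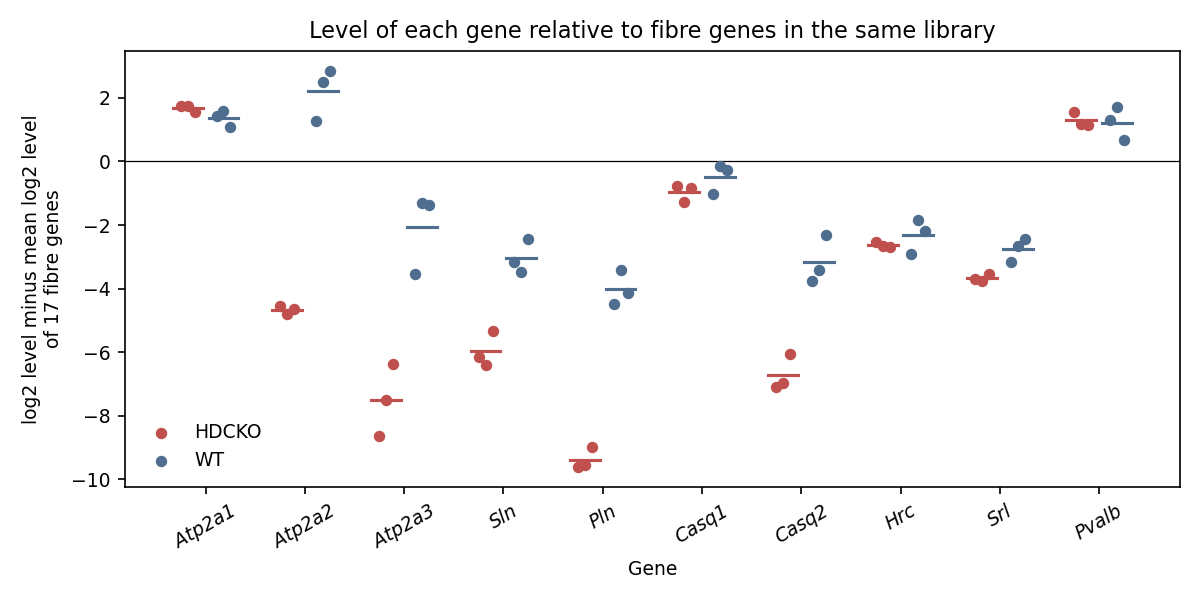
Log2 level of each gene minus the mean log2 level of 17 fibre genes in the same library, HDCKO left of WT, with a line at the group mean. The points of Atp2a1, Pvalb, Hrc and Casq1 overlap between HDCKO and WT, and those of Atp2a2 lie near -4.66 in HDCKO and 2.21 in WT.

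Genes of slow fibres, where Atp2a2, Casq2 and Pln are known to be used, were higher as well. All 6 slow fibre genes tested rose (median log2 change 5.14), and all 9 fast fibre genes rose (median 6.68). The summed level of the slow fibre list was 1049, 562 and 198 FPKM in the HDCKO libraries, and 16.8, 10.7 and 7.87 FPKM in the WT libraries. Casq2 did not follow that spread among HDCKO libraries, while Atp2a2 and Pln stood in the same order. That order was not particular to slow fibre genes. The fast fibre list (50501, 41961 and 28385 FPKM), Atp2a1, Pvalb, Casq1, Hrc and Srl had it too. In the WT libraries Atp2a2 (80.8, 77.2 and 85.9 FPKM) did not follow the slow fibre list. Of 7 genes of myoblasts and developing fibres 2 rose and 0 fell, also at an unadjusted p under 0.05: Myh8 (log2 change 2.43) and Myog (3.11). Of all genes tested, 17.8% rose and 42.6% fell. HDCKO replicate 3 stood apart in this list, with sums of 32.6, 36.8 and 158 FPKM in the HDCKO libraries and 5.98 to 27.7 FPKM in WT. Myog, at 10.4, 20.6 and 78.9 FPKM in the HDCKO libraries and 5.44, 0.401 and 4.85 FPKM in the WT libraries, passed with an adjusted p of 0.0346. Without HDCKO replicate 3 its log2 change was 2.31 (adjusted p = 0.0653), without WT replicate 2 it was 2.23 (0.0826), and it also did not pass without HDCKO replicate 2 (0.0816), WT replicate 1 (0.0539) or WT replicate 3 (0.0615), or with no filter (0.0667). Pln and Atp2a2 are also used in smooth muscle. Of 8 smooth muscle and pericyte genes 3 rose and 0 fell, beside the same 17.8% and 42.6% of all genes tested. Among the 3 were the pericyte genes Rgs5 (162.8 ± 18.6 FPKM in HDCKO and 57.5 ± 1.75 in WT) and Abcc9 (40.6 ± 7.05 FPKM in HDCKO and 13.4 ± 1.69 in WT). The third, Des, is also a fibre gene. At an unadjusted p under 0.05, 4 genes of the list were higher and 1 was lower. Besides the 3 above, Myh11 was higher and was named after its values were seen. It had 14.98 ± 4.75 FPKM in HDCKO and 7.96 ± 2.70 FPKM in WT (log2 change 0.86, limma adjusted p = 0.0592). The lower gene, Notch3, also a pericyte gene, was named after its values were seen. Notch3 had 9.21 ± 1.30 FPKM in HDCKO and 12.2 ± 0.442 FPKM in WT (log2 change -0.40, limma adjusted p = 0.0541). Its sign turned under median-of-ratios scaling (0.13). Acta2, the smooth muscle actin, chosen after its values were seen, had 54.5 ± 2.70 FPKM in HDCKO and 54.1 ± 13.9 FPKM in WT (SD, n = 3 each; limma adjusted p = 0.875). The part of smooth muscle in the levels of Pln and Atp2a2 was not tested.

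Most genes of the triad, where the store meets the cell membrane, rose. Of 16 tested, 14 rose and 2 fell, beside 17.8% and 42.6% of all genes tested, with a median log2 change of 5.27. Sypl2, a mitsugumin of the triad membrane, held 147 ± 48.4 FPKM in HDCKO against 0.780 ± 0.407 FPKM in WT (log2 change 6.85). Cacna1s, the voltage sensor, showed 121 ± 30.6 FPKM in HDCKO against 0.832 ± 0.493 FPKM in WT (6.54). Stac3, an adaptor of that channel (6.21), and Tmem38a, a potassium channel of the store membrane (5.93), rose too, each with a limma adjusted p of 1.47e-04. The 2 that fell, Fkbp1a (-1.43) and Fkbp1b (-1.64), encode small proteins that bind ryanodine receptors and were named after their values were seen. Fkbp1a had 96.0 ± 18.9 FPKM in HDCKO and 257 ± 29.2 FPKM in WT. Fkbp1b did not pass when replicate 2 of HDCKO or replicate 1 or 3 of WT was left out (adjusted p from 0.0518 to 0.0567). Strit1 and Mrln encode micropeptides that act on SERCA, the first as an activator and the second as an inhibitor. Both rose, Mrln to 54.5 ± 25.4 FPKM in HDCKO against 0.697 ± 0.322 in WT (log2 change 5.44, adjusted p = 3.88e-04). Strit1 held 35.0, 10.6 and 2.38 FPKM in the HDCKO libraries, against 0.108, 0.0929 and a listed 0 in the WT libraries (log2 change 4.21, adjusted p = 0.00941). With HDCKO replicate 1 left out its log2 change was 3.33, and with HDCKO replicate 3 left out 5.14.

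Calcium buffers of the general endoplasmic reticulum moved the other way. Of 10 such genes, 0 rose by limma, also at an unadjusted p under 0.05, and 9 fell, with a median log2 change of -1.93, against -0.50 for all genes tested. The count was again 9 under quantile normalization and under median-of-ratios scaling, and 8 without HDCKO replicate 2, WT replicate 1 or WT replicate 3. Calr, which encodes calreticulin, the main luminal calcium buffer of non-muscle cells, had 183 ± 87.2 FPKM in HDCKO and 667 ± 80.2 FPKM in WT (SD, n = 3 each; log2 change -1.97, adjusted p = 0.00775). Calu, encoding calumenin (-2.07), Hspa5, a luminal chaperone (-1.90), and Rcn2, a reticulocalbin (-0.93), fell too. The summed level of the 10 genes was 435, 672 and 1117 FPKM in the HDCKO libraries and 2254 to 2818 FPKM in WT. In the same libraries the luminal buffers of the muscle store, Casq1, Casq2, Hrc and Srl, took 0.250% to 0.444% of all FPKM in HDCKO and 0.00374% to 0.00609% in WT. Macrophage markers summed to 113, 356 and 572 FPKM in the HDCKO libraries and to 497 to 1052 FPKM in WT, and fibroblast markers to 1164 to 1830 FPKM in HDCKO and 2346 to 4394 FPKM in WT. By limma, 3 of 7 macrophage markers and 2 of 6 fibroblast markers fell and 0 rose, beside 42.6% of all genes tested that fell. The part of these cells in the level of the reticulum buffers was not tested.

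Genes of other routes of calcium transport changed in both directions, as did all genes tested, of which 17.8% rose and 42.6% fell. Of 5 genes of calcium export at the plasma membrane 2 rose and 2 fell: Slc8a3, a sodium-calcium exchanger of muscle (log2 change 3.19), and the pump Atp2b3 (2.22) rose, while the widely expressed pumps Atp2b1 (-1.03) and Atp2b4 (-0.78) fell. Atp2b4 did not pass with median-of-ratios scaling (adjusted p = 0.233), with quantile normalization (0.132), or when replicate 1 or 2 of HDCKO or replicate 1 or 3 of WT was left out (0.0504 to 0.0866). The Golgi pump Atp2c1 fell (-1.10). Of 6 genes of store-operated entry, the store sensor Stim1 rose (28.1 ± 5.33 FPKM in HDCKO against 8.69 ± 0.765 FPKM in WT, log2 change 1.63), as did its inhibitor Saraf (0.99), and the channel gene Orai3 fell (-0.77). Orai2 had 1.72 ± 1.54 FPKM in HDCKO and 4.50 ± 0.610 FPKM in WT and did not pass (log2 change -1.45, limma adjusted p = 0.0654). Orai2 passed as lower with sample weights (limma adjusted p = 1.67e-04) and without HDCKO replicate 3 (0.0104). Orai3 did not pass with median-of-ratios scaling (adjusted p = 0.107), with quantile normalization (0.0535), or when HDCKO replicate 2 or any single WT library was left out (0.0563 to 0.0689). Of the 3 genes of inositol trisphosphate receptors, 0 passed in limma, with Itpr2 at 0.99 (adjusted p = 0.0823), Itpr3 at -0.94 (0.0587) and Itpr1 at -0.24 (0.354); at an unadjusted p under 0.05, 1 passed, as lower. Calls appeared in other settings: Itpr2 passed as higher when scaled by median of ratios (1.37, limma adjusted p = 0.0148), when quantile normalized (1.28, 0.0115), with sample weights (1.03, 2.13e-04) and without HDCKO replicate 1 (1.38, 0.0200). Itpr3 passed as lower with sample weights (limma adjusted p = 8.14e-05), with a replicate block (0.0322) and without HDCKO replicate 3 (0.00263). Itpr1 passed as lower with sample weights (limma adjusted p = 7.90e-04) and without HDCKO replicate 3 (0.0143). The related store channel gene Tmem38b rose (0.78, adjusted p = 0.0442), but not when replicate 1 or 2 of HDCKO or replicate 1 or 3 of WT was left out (adjusted p from 0.0774 to 0.117), with no filter (0.0725) or with columns rescaled to the same sum (0.0566).

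Of 9 genes of mitochondrial calcium uptake 2 rose and 2 fell, beside 17.8% and 42.6% of all genes tested. With median-of-ratios scaling 6 rose and 2 fell, and of all 13288 genes 3593 rose and 3355 fell. Mcub, which encodes a subunit that lowers uptake through the uniporter, had 4.04 ± 3.03 FPKM in HDCKO and 33.3 ± 4.34 FPKM in WT (log2 change -3.11, limma adjusted p = 0.00428). Micu3, a regulator of the uniporter, rose (1.34), as did Letm1 (0.47), and Slc8b1, the exchanger by which mitochondria release calcium, fell (-1.28). Letm1 did not pass with columns rescaled to the same sum (adjusted p = 0.0518), with a replicate block (0.0587), or when HDCKO replicate 2 or any single WT library was left out (0.0591 to 0.0729). Slc8b1 did not pass when replicate 2 of HDCKO or replicate 2 or 3 of WT was left out (adjusted p from 0.0693 to 0.0730). The list of calcium-dependent kinases, calcineurin and calmodulin genes, which also held Ppp1r3a, had 14 genes, of which 8 rose and 2 fell. The 4 with the smallest p were Ppp1r3a, a glycogen-targeting phosphatase subunit of muscle (6.29), and the calmodulin kinases Camk2a (5.92), Camk2b (4.08) and Camk2g (1.53), all of which rose.

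**Figure D5:**
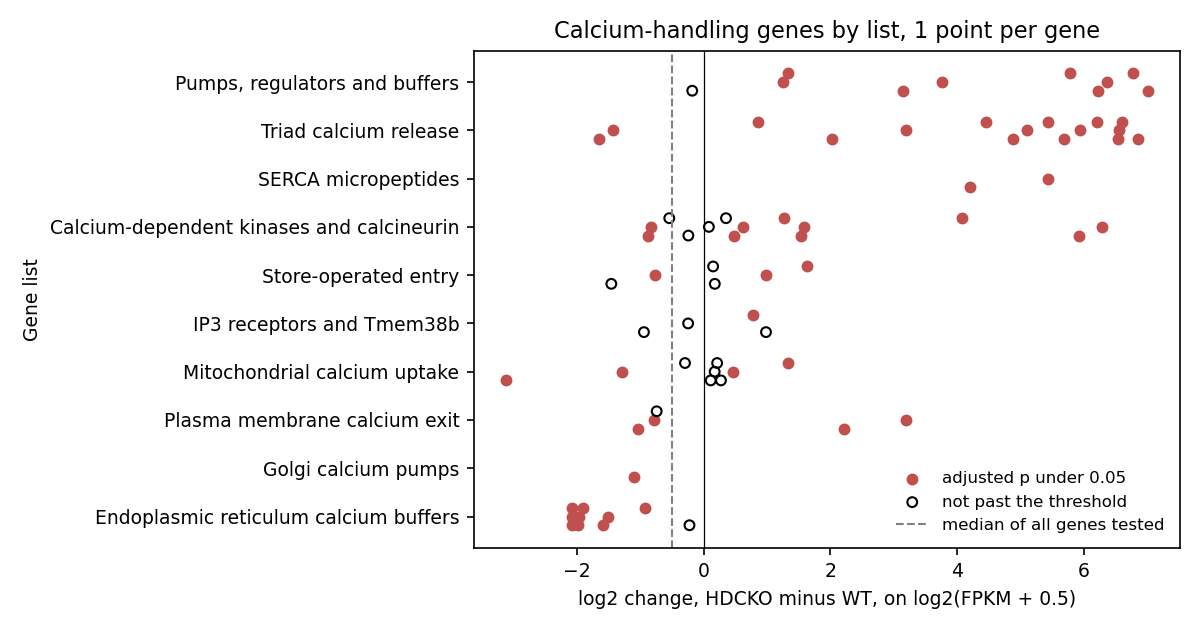
Log2 change (HDCKO minus WT, on log2(FPKM + 0.5)) of each tested gene by list; filled points passed the limma threshold, open points did not, and the dashed line is the median of all genes tested, -0.50. The triad genes that rose lie between 0.86 and 6.85, Fkbp1b is lowest in that list at -1.64, and the buffers of the general endoplasmic reticulum lie between -2.08 and -0.22.

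Outside the 10 genes, those with the most similar pattern were found by the root mean square difference of centred log2 values over 6 libraries. For Atp2a1 these were Ckm (0.16), Myoz1 (0.16) and Pgam2 (0.16), and for Pvalb Sh3bgr (0.22), Tnni2 (0.25) and Cox8b (0.25). Srl had the closest match among the genes that rose, Jph1 (0.07), a junctophilin of the triad, followed by Tmod4 (0.09) and Mybph (0.09). Casq1 and Hrc had the same nearest gene, Fsd2 (0.14 and 0.13). Next came Scn4a (0.17) and Tmem52 (0.19) for Casq1, and Cox6a2 (0.14) and Lrrc30 (0.21) for Hrc. Atp2a2 was nearest to Tpm3 (0.06), Higd1a (0.09) and Nat14 (0.16). Casq2 was nearest to Rapsn (0.17), Itm2a (0.18) and Sync (0.19), and Pln to Lmo7 (0.21), Kcna5 (0.21) and Hpn (0.22). Atp2a3 was nearest to 4930523C07Rik (0.17), Coch (0.23) and Itpr2 (0.24). Sln had no gene nearer than 5430431A17Rik (0.32), followed by F830016B08Rik (0.32) and the clock output gene Dbp (0.32).

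Promoter windows from RefSeq (GRCm38.p6), 250 bases before to 50 bases after each annotated start, were matched for 7 of the 10 genes, with 2 windows for Pvalb. Sln, Srl and Atp2a2 were not matched. The letters CAGCTG, an E-box form bound by myogenic factors, were in 4 of the 8 windows, at -55 in Atp2a1, -195 in Casq1, -22 in Hrc and 9 in Pln relative to the start, and in 16.4% of 32544 windows of the same length. The MEF2 consensus was in 2 of 8 windows, at -180 in Pvalb and -69 in Casq2, and in 3.16% of all windows. The wider E-box CANNTG, of which CAGCTG is 1 form, was in 6 of 8 windows and 72.3% of all, TATAAA in 1 of 8 and 13.6%, the CArG box in 0 of 8 and 1.64%, and CATTCC in 0 of 8 and 14.6%. Both strands were searched, and a match describes letters in the window, not a bound site. The windows of 4 genes that rose by more than 6 on the log2 scale are shown beside that of Atp2a3, which holds none of these letters. They are chr7:126463024-126463323 (Atp2a1, minus strand), chr1:172219846-172220145 (Casq1, minus strand), chr7:45335019-45335318 (Hrc, plus strand), chr15:78206351-78206650 (Pvalb, minus strand) and chr11:72960919-72961218 (Atp2a3, plus strand). Capitals mark CAGCTG and the MEF2 consensus, and the 5 windows run 5′ to 3′ on the strand of the gene.
Atp2a1: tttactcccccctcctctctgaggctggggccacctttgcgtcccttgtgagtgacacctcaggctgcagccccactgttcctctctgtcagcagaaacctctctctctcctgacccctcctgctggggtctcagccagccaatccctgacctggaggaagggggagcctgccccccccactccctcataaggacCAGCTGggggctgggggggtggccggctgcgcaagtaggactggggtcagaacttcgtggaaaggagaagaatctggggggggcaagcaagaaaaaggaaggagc
Casq1: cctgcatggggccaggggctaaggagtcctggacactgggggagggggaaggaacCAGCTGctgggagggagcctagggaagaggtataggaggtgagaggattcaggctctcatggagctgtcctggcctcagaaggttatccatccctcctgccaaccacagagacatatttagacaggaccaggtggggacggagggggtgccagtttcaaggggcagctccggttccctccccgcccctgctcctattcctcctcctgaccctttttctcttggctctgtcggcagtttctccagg
Hrc: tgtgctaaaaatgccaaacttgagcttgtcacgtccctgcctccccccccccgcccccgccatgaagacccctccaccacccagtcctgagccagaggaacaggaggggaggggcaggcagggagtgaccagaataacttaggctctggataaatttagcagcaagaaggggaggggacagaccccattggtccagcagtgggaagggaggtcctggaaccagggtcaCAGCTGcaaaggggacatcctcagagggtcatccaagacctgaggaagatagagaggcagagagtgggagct
Pvalb: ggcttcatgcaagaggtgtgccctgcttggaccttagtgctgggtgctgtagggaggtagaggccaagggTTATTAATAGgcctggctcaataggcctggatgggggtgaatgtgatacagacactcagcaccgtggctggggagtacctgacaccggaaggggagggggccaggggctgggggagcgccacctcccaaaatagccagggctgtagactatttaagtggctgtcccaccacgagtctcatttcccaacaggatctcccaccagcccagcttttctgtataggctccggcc
Atp2a3: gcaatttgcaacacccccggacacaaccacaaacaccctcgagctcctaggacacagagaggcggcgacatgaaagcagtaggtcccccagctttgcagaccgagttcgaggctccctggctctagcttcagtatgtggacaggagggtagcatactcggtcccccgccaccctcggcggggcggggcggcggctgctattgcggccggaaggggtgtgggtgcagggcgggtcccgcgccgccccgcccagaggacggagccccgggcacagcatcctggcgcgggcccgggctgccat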

How the data were processed

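The deposited table gives FPKM values that the authors computed from counts per gene, with 1 column for each of 6 libraries. Per the submitters' processing notes, FastQC 0.11.9, HISAT2 2.1.0, HTSeq 0.11.2 and STAR 2.7.11b were used with GRCm39; the sources used here do not say which aligner led to the table. The same notes name DESeq2 1.22.2, which was not used here. FPKM are not counts, so limma 3.58.1 (R 4.3.3) with a mean-variance trend was fitted to log2(FPKM + 0.5) across all genes whose mean over the 6 libraries reached 0.5 FPKM, HDCKO against WT, with Benjamini-Hochberg adjustment and a threshold of 0.05. A log2 change on this scale understates the change of genes near 0. Ratios and relative levels were tested by exact two-sided permutation (scipy 1.17.1), which cannot go below p = 0.1 with 3 against 3. The fit was also run on simulated data with few changed genes, unlike these data, and no result here rests on that run.

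Genes were named by a rule: the 10 genes, Hdc, the genes of each list with the smallest p (up to 4 of a calcium list and up to 3 of a marker list), and the 3 nearest in pattern; others are said to be chosen after their values were seen. The genes and lists were chosen with earlier results of these data known. Erln and Arln of the micropeptide list were not matched. Depth estimates entered no test. The labels do not say that the mice were litter mates. The limma p-values set the difference between genotypes against the spread within genotypes, with variance information shared over genes. Exact p-values compare the difference with those under other assignments of these 6 mice. Alternatives were other pseudocounts (0.1 and 1), filters (none, and a mean of 1 FPKM) and scalings, sample weights, no trend, a replicate block and leaving out each library. Gene coordinates and exon lengths are from GENCODE M39 on GRCm39.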

Additional observations from a re-analysis of the deposited data

How the results depend on the processing

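The count of genes that rose among the 10 was 9, and 7 to 9 under the 16 other settings. Atp2a1, Sln, Casq1, Casq2, Hrc, Srl and Pvalb passed as higher in all 16, Pln in 15 and Atp2a3 in 9. Genes lower among the 10 numbered 0, but 1 with sample weights (Atp2a2). The log2 change of Atp2a2 was 0.38 when scaled by median of ratios, 0.15 when quantile normalized, and -0.43 to 0.066 when 1 library was left out. Leaving out HDCKO replicates 2 and 3 together, a step added after the data were seen, gave 0.33 for Atp2a2. For Itpr1 the change was 0.27 when scaled by median of ratios and 0.18 when quantile normalized. Acta2, at 0.04, was -0.061 with columns rescaled to the same sum and -0.098 to 0.24 when 1 library was left out, and Notch3, at -0.40, was 0.13 when scaled by median of ratios and 0.050 when quantile normalized. The level of Pvalb relative to fibre genes was -0.092 with a pseudocount of 0.1 and -0.20 to 0.32 when 1 library was left out. Over all genes, 3593 rose and 3355 fell with median-of-ratios scaling. When 1 library was left out, 2502 (without HDCKO replicate 2) to 7266 (without HDCKO replicate 3) fell. The cause of these shifts was not tested.

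The replicate numbers are not stated to pair the mice, and deviations of same-numbered libraries correlated at 0.12, 0.07 and 0.14 over genes; HDCKO replicate 2 correlated more with WT replicate 1 (0.11). With a replicate block 9 of the 10 genes rose, 2081 of all genes rose and 5089 fell. Depth limits Sln and Pln most, at about 41 and 40 fragments in their lowest WT libraries.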
